A study of Bos taurus with 35 samples.

Results

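The 100 genes described here were the genes whose expression varied least over the fat depots and the muscle of Hanwoo cattle (Korean native cattle). They were chosen on the spread itself. Levels were read as CPM (the counts on a gene per 1000000 counts on genes, with each library size multiplied by a TMM factor), and a gene was a candidate if it had a CPM of 10 or more in each of the 34 libraries. Of 24596 genes in the tables, 5789 were candidates, after the genes of the study's qRT-PCR list were left out. The 100 candidates with the lowest standard deviation (SD) of log2 CPM over the 34 libraries, with a prior count of 2, are called the steady genes below. The Ensembl identifiers of the steady genes could not be paired with gene names here, so what these genes do and how their sequences compare were not analysed here. ACTB and GAPDH, the standards of the study's qRT-PCR, could be paired and served as the comparison.

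The samples were pieces of fat from the omentum (O), from within the muscle (I, intramuscular) and from under the skin (S, subcutaneous), and of muscle (M), from 9 animals of the breed labelled Hanwoo/coreanae, which were 30 months old and kept in the same feeding barn. The labels give 3 females, 3 castrated males and 3 males, whereas the study's methods speak of steers. There were 9 O, 8 I, 9 S and 8 M libraries, in which the replicate number is the number of the animal. Replicate 9 is without an I library and replicate 7 without an M library in what was analysed here. The S and I depots were cut from one rib section and O was taken at the abomasum. The study's methods do not give the site of the M samples. Each sample was whole tissue. In such bulk samples, fewer cells of a type and less RNA per cell cannot be told apart.

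A reference gene is a gene whose level is taken as constant, so that the level of another gene can be read relative to it in qRT-PCR. ACTB encodes beta-actin, a protein of the cytoskeleton, and GAPDH encodes an enzyme of glycolysis, the pathway that breaks down glucose and that is highly active in skeletal muscle. Both are used as references because almost every cell expresses them. A gene can be expressed everywhere and still differ in level between tissues, and spread over tissues and animals is therefore usually measured before a reference is chosen. The primers by which the study read its standards are shown, 5′ to 3′, because they define the assays against which the steady genes were set here.
ACTB forward: ggacctctacgccaacacgg
ACTB reverse: ggagccgccaatccacac
GAPDH forward: caagatggtgaaggtcggagtg
GAPDH reverse: cgtgggtggaatcatactggaa
The product size given with the primers was 160 bp for ACTB and 158 bp for GAPDH. The RNA-seq counts below cover whole genes and not these products. Both genes have near-identical copies in mammalian genomes, and how the counting treated reads that match several places is not given in the sources used here.

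Counts on genes were 3726376 to 7184022 per library. The TMM factor, which allows for a few genes taking a large share of the counts, was 1.01 to 1.29 in the 26 fat libraries and 0.524 to 0.747 in the muscle libraries. The share of the 20 most counted genes was 8.13% to 15.1% in fat and 23.1% to 30.6% in muscle. FASN, a gene of fatty acid synthesis, had a CPM of 1062 to 8344 in O and S, of 217 to 1470 in I and of 49.2 to 123 in M. TPM2, which encodes a tropomyosin of the muscle fibre, had a CPM of 70.7 to 262 in O and S, of 839 to 2023 in I and of 21910 to 51130 in M. The I libraries thus carried more TPM2 than the other fat libraries, and the part of this in any result for I was not tested. Deviations of the M libraries from the tissue means over the candidate genes were correlated with those of the fat libraries of each animal. Of the 8 M libraries, 4 correlated best with their own animal. That of replicate 4 had a median correlation of -0.03 with its own animal, which ranked the fourth of the 9 animals. That of replicate 5 had 0.171 with its own animal and 0.428 with replicate 6, and for those of replicates 1 and 6 the own animal ranked the third. The M library of replicate 8 had the highest TMM factor (0.747) and the fewest counts on genes (3726376) of the muscle libraries. Values without replicate 4 or 8 of muscle are given where they bear on a result.

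The steady genes had SDs of log2 CPM of 0.119 to 0.218, with a median of 0.197, and the median of all candidates was 0.514. These SDs chose the genes, so they describe the list and were not tested. The limit of the list did not fall at a gap. The last 5 genes of the list had SDs of 0.2166, 0.2169, 0.2172, 0.2181 and 0.2185, and the next 5 candidates had 0.2186, 0.2189, 0.2189, 0.2192 and 0.2193. The jackknife standard error over the 9 animals of the median SD of the steady genes was 0.007. The SD was 0.697 (jackknife standard error 0.06) for ACTB and 1.83 (0.114) for GAPDH. Among 5796 genes, the candidates and the 7 qRT-PCR genes with a CPM of 10 or more in every library, ACTB ranked 4188 and GAPDH 5751 from the steadiest. The spread of both over fat and muscle was thus above the median of the candidates. Over the 26 fat libraries alone the SD was 0.382 for ACTB and 0.444 for GAPDH, against a median of 0.368 for the 6678 candidates found in fat, among which they ranked 3574 and 4395. In fat alone both standards were thus closer to the median of the candidates, and both were above the largest SD of a steady gene there (0.231).

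**Figure D1:**
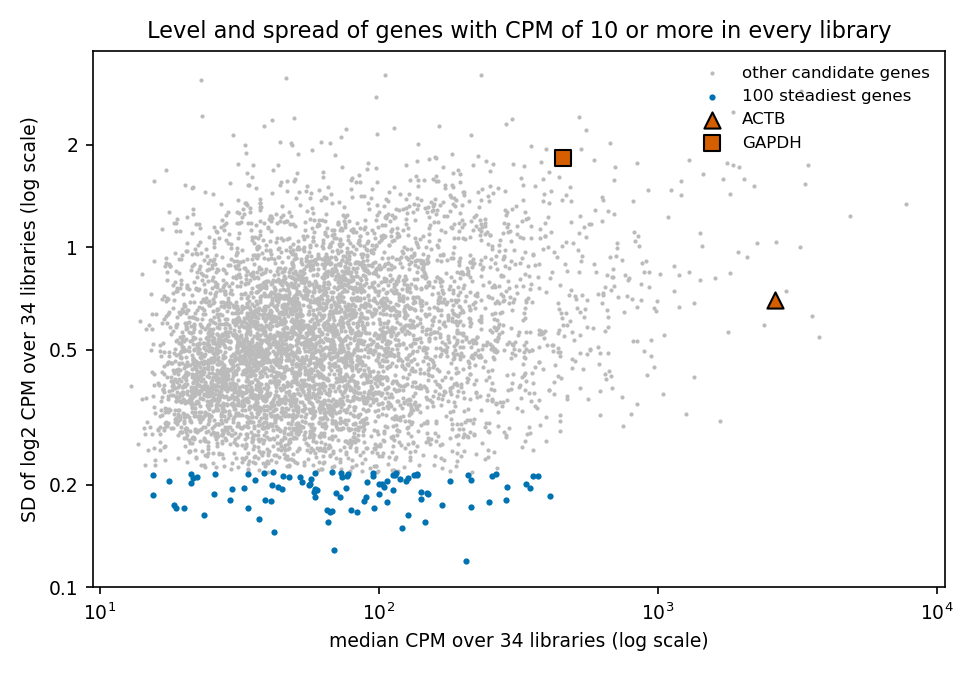
SD of log2 CPM over 34 libraries against the median CPM, both axes on a log scale, with each candidate gene as a grey point, the 100 steady genes in blue and ACTB and GAPDH as larger symbols. The steady genes lie along the lower edge at SDs of 0.119 to 0.218, and ACTB (0.697) and GAPDH (1.83) lie above them.

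The steady genes covered most of the range of CPM of the candidates, without its highest part. Their median CPM ran from 15.5 to 412, with a median of 75.4, and that of the other candidates from 13.0 to 7794, with a median of 56.9. With the candidates split by median CPM into 4 groups of like size, 18 steady genes fell in the lowest group, 16 in the next, 31 in the one above and 35 in the highest. ACTB had a median CPM of 2630, above every steady gene, and GAPDH had 459. CPM are not divided by gene length, so they give the counts behind a gene and not an order of transcript number between genes. The fewest counts of a steady gene in any library were 31 to 928 (median 172). The variance that counting alone would give was a median of 14.7% of the variance of a steady gene and 2.67% of that of the other candidates. In 7 steady genes counting made up over 50% of the variance, which was so for 0.0352% of the other candidates. The share is taken of the variance that chose the genes, so its higher values follow from the rule. The SD from counting itself had a median of 0.074 in the steady genes and 0.088 in the other candidates. For those 7 genes the libraries were too shallow to show how steady they were beyond counting error.

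The steadiest gene was ENSBTAG00000002510, with an SD of 0.119. Its CPM was 188 to 230 in O (median 205), 180 to 239 in I (205), 192 to 235 in S (210) and 169 to 231 in M (216). The lowest M library, of replicate 5, was below every fat library and the other muscle libraries lay within the range of fat. The mean log2 CPM of muscle differed from the mean of the depots by -0.001. ENSBTAG00000014043 was the second, with an SD of 0.129. Its CPM was 62.1 to 78.4 in O (median 67.2), 62.3 to 70.9 in I (68.7), 62.0 to 73.5 in S (68.9) and 66.7 to 90.5 in M (70.8). In this gene 2 muscle libraries were above every fat library and the rest overlapped with fat. The highest CPM of a steady gene was 1.42 to 2.23 times its lowest, and it was under 2 times the lowest in 88 of the 100 genes, against 1.78% of the other candidates. The same ratio was 6.45 for ACTB and 53.5 for GAPDH. This ratio is another reading of the spread that chose the steady genes. The differences to the other candidates and the standards are thus a description and were not tested.

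The spread of the steady genes within a tissue was larger than that between tissues. The pooled SD within tissues had a median of 0.173 over the steady genes and the SD of the tissue means had a median of 0.103. The SD of the tissue means was above the pooled SD within tissues in 13 of the 100 steady genes and in 67.3% of the other candidates. The SD that chose the genes holds the tissue differences, so these values describe the list and were not tested. After tissue means were taken off, the SD of the animal means had a median of 0.110 and the remaining SD a median of 0.155. The range over the means of the 3 sex labels had a median of 0.109 for the steady genes and 0.182 for the other candidates. ACTB had an SD of the tissue means of 0.692 and a pooled SD within tissues of 0.388. For GAPDH these were 2.07 and 0.404. Both standards thus varied more between tissues than within them. Their spread within tissues was also above that of every steady gene (0.117 to 0.218), which the rule kept low. Among the other candidates the pooled SD within tissues had a median of 0.327 and an upper quartile of 0.418, and both standards lay between these.

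Muscle was the most variable tissue for most steady genes. The SD of log2 CPM over the animals had a median of 0.145 in O, 0.178 in I, 0.136 in S and 0.202 in M, and the medians of all candidates were 0.258, 0.328, 0.269 and 0.364. The widest tissue was M for 56 steady genes, I for 27, O for 11 and S for 6. Among the other candidates M was the widest for 50.1%, I for 32.1%, O for 11.2% and S for 6.54%. The order of the tissues by spread was thus nearly that of the other candidates. At a like CPM the muscle libraries held fewer counts. ENSBTAG00000002510 had 509 to 801 counts in M and 1006 to 1677 in O. The part of counting error in the wider spread of M was not tested. ENSBTAG00000007299 had the widest spread of a steady gene in muscle. Its CPM was 60.3 to 87.1 in O (median 67.0), 63.2 to 78.0 in I (73.9), 65.1 to 80.2 in S (71.0) and 62.2 to 130 in M (83.1). The M library of replicate 5 was the highest of all 34 libraries, and 3 muscle libraries were above every fat library.

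The means of the 4 tissues of a steady gene lay within 0.06 to 0.438 on the log2 scale of each other. The range was under 0.2 in 37 genes and under 0.3 in 72. The highest gap from muscle to the mean of the depots was 0.37 and the lowest was -0.35. ENSBTAG00000020964 had the former. Its CPM was 22.2 to 29.9 in O (median 23.3), 19.6 to 29.1 in I (25.2), 22.9 to 28.5 in S (27.0) and 27.3 to 37.1 in M (34.5), and 5 of 8 muscle libraries were above every fat library. ENSBTAG00000018959 had the latter. Its CPM was 91.2 to 125 in O (median 111), 93.1 to 120 in I, 94.1 to 119 in S (median 113) and 73.8 to 108 in M (median 85.2), and 6 of 8 muscle libraries were below every fat library. The rule let through tissue differences of this size. Of the steady genes 57 were higher in muscle than in the mean of the depots, as were 57.8% of the other candidates. In I, 38 were higher than in the mean of O and S, against 48.9% of the other candidates. In O, 41 were higher than in S, against 46.8%.

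**Figure D2:**
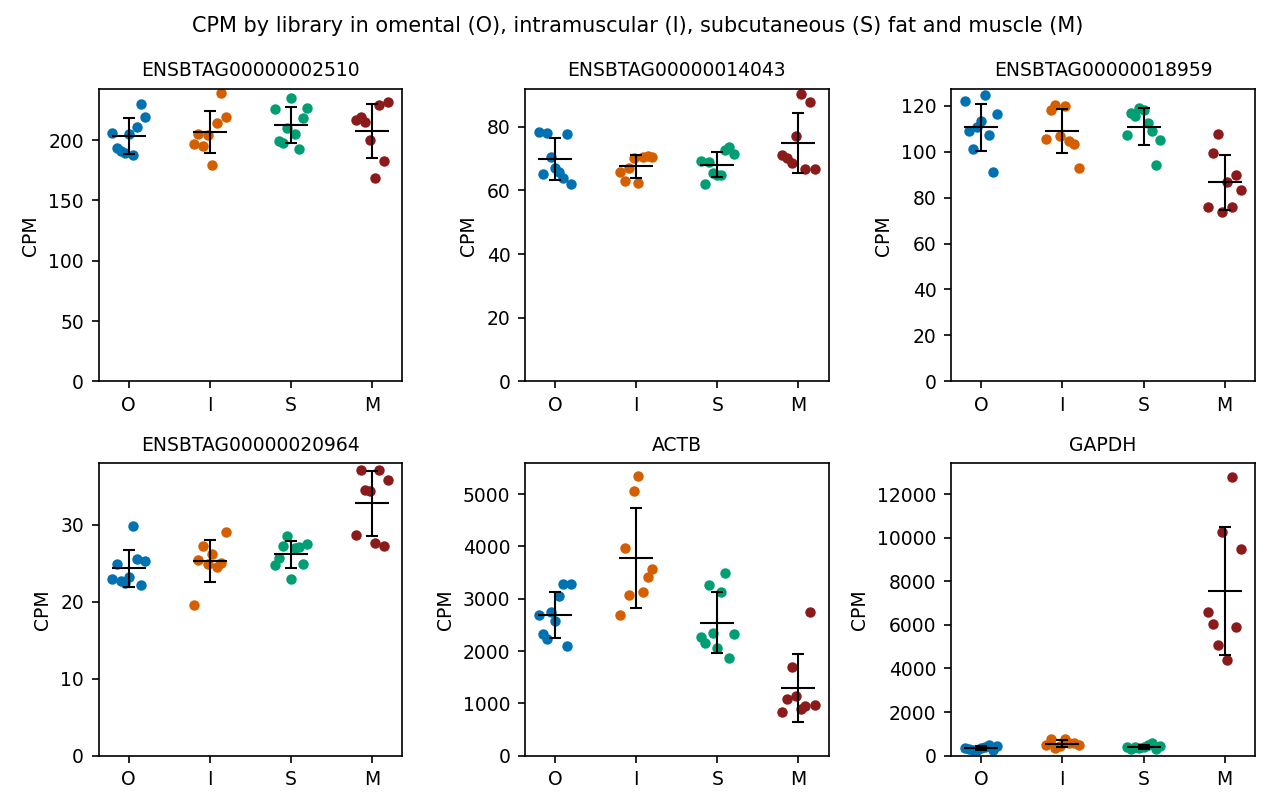
CPM of 4 steady genes, ACTB and GAPDH in omental (O, n = 9), intramuscular (I, n = 8) and subcutaneous (S, n = 9) fat and muscle (M, n = 8), with a point per library and bars for the mean and SD, on axes that start at 0. The first 2 genes overlap between all tissues, ENSBTAG00000018959 is low and ENSBTAG00000020964 is high in most muscle libraries, and GAPDH in muscle (4388 to 12790) is far from fat (239 to 774).

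Differentially expressed genes (DEGs) were called for each pair of tissues by edgeR's quasi-likelihood method, at a Benjamini-Hochberg false discovery rate (FDR) under 0.01, over all genes kept by the filter on counts. The SD that chose the steady genes holds these contrasts, so the counts of steady genes called are a description. All 100 were tested in each pair, and nothing is read from the difference to the share of all genes. Between O and I 5 were called, against 32.8% of all genes tested. Between O and S 1 was called (3.32% of all genes), and between I and S 3 (32.7%). Against muscle, 7 were called with O (63.4%), 3 with I (59.8%) and 5 with S (62.7%). The largest absolute log2 fold change of a steady gene was 0.49. In the pairs with muscle, the calls were 1 higher and 6 lower in muscle against O, 3 higher against I and 5 lower against S. In all, 17 steady genes were called in at least 1 pair, 6 between depots and 13 against muscle, and 83 were called in none. The share of all genes is given here for single pairs in the main setting only. Counts over several pairs or with other settings thus stand without it, and nothing is read from them about the steady genes. With the animal as a replicate block the count of steady genes called was 1 for O and I, 1 for O and S, 0 for I and S, 3 for M and O, 1 for M and I and 1 for M and S. In I and S with the block, 9 steady genes had an unadjusted p under 0.05 in edgeR, and DESeq2 without the block called 7.

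ENSBTAG00000021521, the last gene of the list, was the steady gene called between O and S. Its CPM was 55.2 to 75.7 in O (median 66.4), 56.8 to 83.1 in I (66.9), 77.2 to 103 in S (84.1) and 60.03 to 71.5 in M (64.2). All 9 S libraries were above all O and M libraries. The log2 fold change was -0.39 in O against S (SE 0.08, edgeR adjusted p = 0.00376), -0.33 in I against S (SE 0.10, 0.00787 in the same test) and -0.46 in M against S (SE 0.10, 0.000391). The call in O against S was lost without replicate 1, 3, 4 or 6, where the adjusted p was 0.0102 to 0.0163 and the fold change -0.35 to -0.39. The call in I against S held in 5 of 14 settings, the main one included, and was lost with the animal as a replicate block (-0.35, adjusted p = 0.0153), without the filter on counts and without replicate 1, 2, 3, 4, 6, 7 or 8. The call in M against S held in all 14 settings. The SD that chose this gene holds these contrasts, so its adjusted p values and calls are a description.

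ACTB was higher in the depots than in muscle. Its CPM was 2698 ± 440 (SD, n = 9) in O, 3784 ± 958 (n = 8) in I, 2544 ± 588 (n = 9) in S and 1287 ± 647 (n = 8) in M. The M values ran from 830 to 2743, with a median of 1025, and the highest, of replicate 8, was the only M value within the ranges of all 3 depots. The log2 fold change of muscle was -1.14 against O (SE 0.22, edgeR adjusted p = 0.000119), -1.56 against I (SE 0.28, adjusted p = 5.02e-05) and -1.02 against S (SE 0.24, adjusted p = 0.000777). ACTB was lower in muscle in 7 of 8 animals against O, 7 of 7 against I and 7 of 8 against S. Without the M library of replicate 8 the gap from muscle to the mean of the depots was -1.46, and with it -1.29. ACTB in I was above S by 0.61 (SE 0.18, adjusted p = 0.00891, 6 of 8 animals) and this call was lost with the animal as a replicate block (0.60, adjusted p = 0.0411). In O against I the log2 fold change was -0.51 (SE 0.16, adjusted p = 0.0133, lower in 8 of 8 animals), which did not pass the threshold. In O against S it was 0.08 (SE 0.14, adjusted p = 0.814, edgeR), so O and S did not differ beyond their spread.

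GAPDH was higher in muscle than in fat. Its CPM was 342 ± 85.5 (SD, n = 9) in O, 555 ± 151 (n = 8) in I, 409 ± 91.0 (n = 9) in S and 7561 ± 2942 (n = 8) in M. The lowest muscle library (4388) was above the highest fat library (774). The log2 fold change of muscle was 4.42 against O (SE 0.26, edgeR adjusted p = 4.99e-12), 3.77 against I (SE 0.31, adjusted p = 2.99e-09) and 4.18 against S (SE 0.26, adjusted p = 1.08e-11), in every animal with both tissues. GAPDH was lower in O than in I by -0.72 (SE 0.18, adjusted p = 0.00243, 8 of 8 animals), and this call was lost without replicate 2 (-0.63, adjusted p = 0.0129). The difference was 0.47 in I against S (SE 0.17, adjusted p = 0.0309) and -0.26 in O against S (SE 0.15, adjusted p = 0.36), and neither passed the threshold. The standards thus ran in opposite directions between fat and muscle.

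If the TMM scaling holds, the size of the error that a reference passes on can be read from its shift. The shift is the log2 CPM in a library minus the mean over the 34 libraries. The mean of the steady genes shifted by -0.09 to 0.06, which the choice of the genes on these TMM-scaled libraries and the averaging over 100 genes largely set, so it is a description and no measure against which single genes can be judged. ACTB shifted by -1.49 (M, replicate 1) to 1.20 (I, replicate 5), and GAPDH by -1.75 (O, replicate 3) to 3.99 (M, replicate 6). The mean shift of ACTB was 0.19 in O, 0.66 in I, 0.09 in S and -0.98 in M, and that of GAPDH was -1.27, -0.58, -1.004 and 3.14. A gene read relative to GAPDH would therefore appear 4.10 lower on the log2 scale in muscle than in the depots if its CPM were level with TMM, and 1.29 higher relative to ACTB. These sizes depend on the scaling. The median gap of all candidates from muscle to the depots was 0.17 with TMM and -0.72 with library size only. With library size only the SD was 1.03 for ACTB and 1.44 for GAPDH. The qRT-PCR values that the study reported compare O, I and S only, so the gap to muscle does not enter them. Among the depots the mean shift was 0.09 to 0.66 for ACTB and -1.27 to -0.58 for GAPDH. The gap of the steady genes themselves was fixed near 0 by the rule. It was 0.02 for their mean with TMM, and without the TMM factor their median gap was -0.85.

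**Figure D3:**
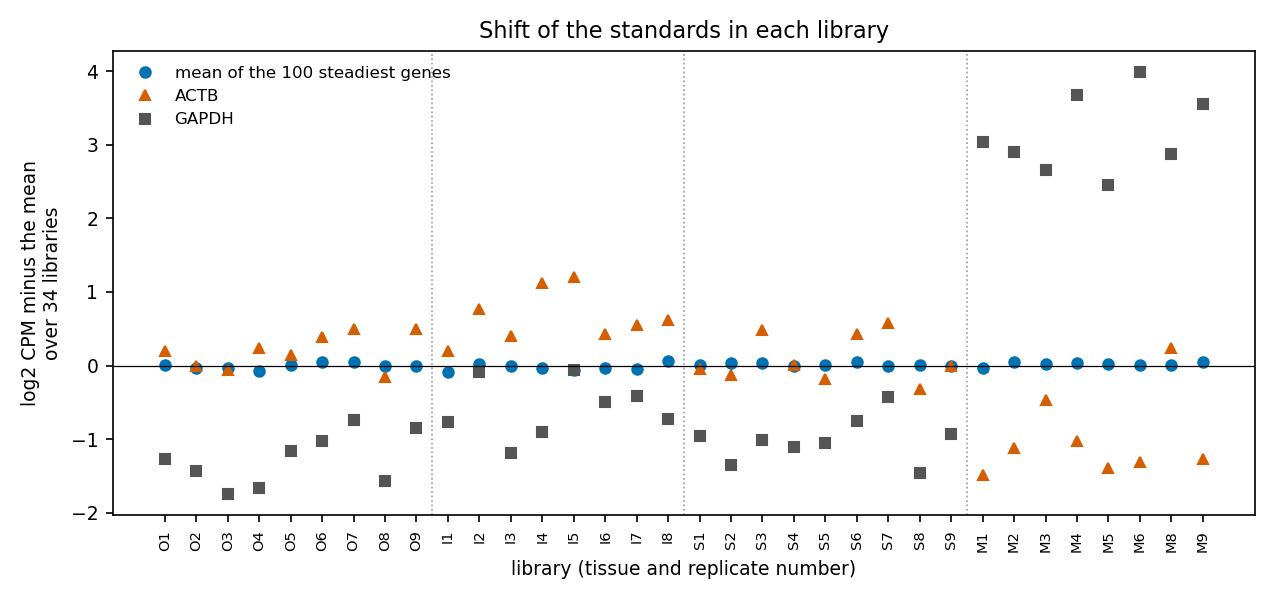
Log2 CPM minus the mean over 34 libraries, by library (tissue letter and replicate number), for the mean of the 100 steady genes, ACTB and GAPDH, with dotted lines between tissues. The mean of the steady genes stays within -0.09 to 0.06, ACTB is below 0 in all muscle libraries but that of replicate 8, and GAPDH is at 2.45 or more in every muscle library and below 0 in every fat library.

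A list chosen for low spread has low spread in the same libraries, so the choice was repeated without each animal and read in the animal left out, with the TMM factors of all 34 libraries kept. The median SD over the libraries of the animal left out was 0.157 to 0.247 for the 100 genes chosen in the others (median over animals 0.178) and 0.336 to 0.606 for all candidates (median 0.5005). It was lower for the chosen genes in 9 of 9 animals. ACTB had SDs of 0.046 to 1.07 (median 0.814) and was above the chosen genes in 8 of 9 animals, and GAPDH had 0.186 to 2.57 (median 2.03). The lowest values of both standards were those of replicate 7, the animal for which no muscle library was read. The largest value of the chosen genes, 0.247, was that of replicate 5.

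**Figure D4:**
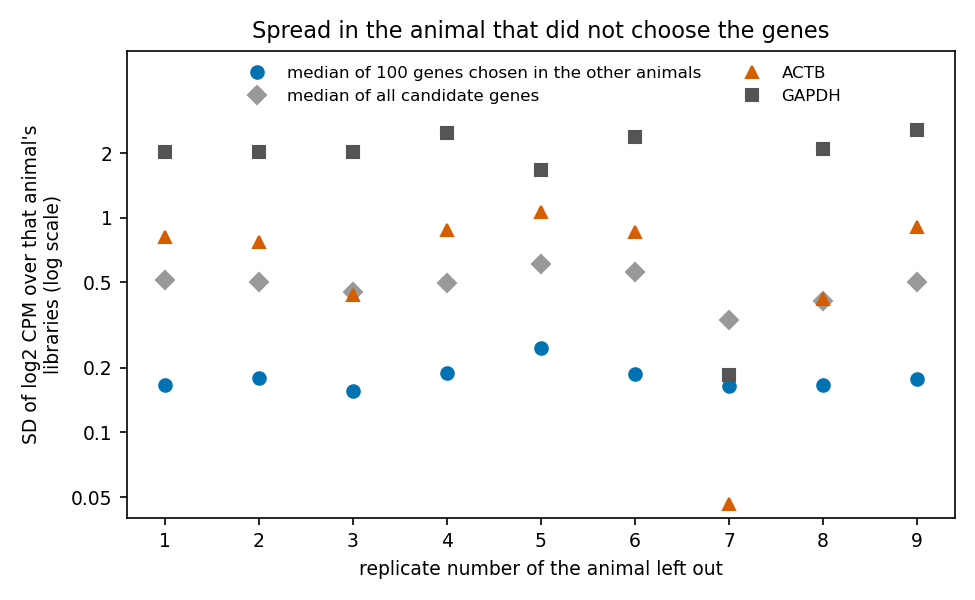
SD of log2 CPM over the 3 or 4 libraries of each animal, on a log scale, for genes chosen without that animal (median of 100), all candidate genes (median), ACTB and GAPDH. The chosen genes lie at 0.157 to 0.247 and below the candidates in each of the 9 animals, and ACTB lies under them in replicate 7 (0.046).

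The lists chosen without an animal held 75 to 90 of the 100 steady genes. In all 9 lists 61 of the steady genes were found, 25 were in 5 to 8 lists and 14 in 1 to 4, and the 9 lists brought in 93 other genes. A low spread in 8 animals thus carried over to the ninth for the list as a whole, while part of its names changed. The same check with library size only gave a median SD of 0.180 in the animals left out, against 0.178 with TMM. Library size only chose 0 of the steady genes over all libraries. The check thus came out alike under either scaling and cannot show which genes are steady apart from the scaling. The mean log2 CPM of the 2 steadiest genes chosen without an animal had an SD of 0.044 to 0.105 in that animal (median 0.071), that of the 10 steadiest 0.024 to 0.108 (median 0.069) and that of the 100 steadiest 0.028 to 0.068 (median 0.042). The study read its genes relative to ACTB and to GAPDH separately. The mean of both, taken here only for comparison, had an SD of 0.115 to 1.15 (median 0.810). The lowest was that of replicate 7, which had no muscle library. The qRT-PCR values reported by the study compare the depots only.

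Tissues were left out in the same way. Genes chosen without O had a median SD of 0.157 over the O libraries, against 0.259 for all candidates. The values were 0.199 against 0.336 for I, 0.161 against 0.271 for S and 0.253 against 0.390 for M. Without muscle, the chosen 100 shared 29 genes with the steady genes, and they shared 62 without I, 77 without S and 79 without O. The genes chosen in the depots had a median absolute difference of 0.454 between their mean in muscle and their mean in the depots, against 0.759 for all candidates. The same difference was 0.133 for O, 0.197 for I and 0.086 for S, each for genes chosen without that tissue, against 0.283, 0.378 and 0.292 for all candidates. Muscle thus stood farther from the other tissues for the chosen genes and for all candidates alike. With its sign kept, the median difference in muscle was 0.35 for the genes chosen in the depots and 0.003 for all candidates.

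With TMM, pairs of steady genes correlated in both directions, a description of values that the rule had already made small. The correlation between pairs of steady genes over the 34 libraries had a median of 0.03, with a range of -0.776 to 0.774, and 3 of 4950 pairs were above 0.7. With tissue means taken off the median was 0.04. These medians show a balance of signs, and the share of pairs with a weak correlation was not counted. The pairs share their libraries and the scaling, and without the TMM factor the same genes had a median gap from muscle to the depots of -0.85. The first principal component held 14.8% of the variance of the steady genes and 57.0% of that of all candidates. The scores on it were -0.205 to 2.03 in the muscle libraries and -1.03 to 1.04 in the fat libraries, and 5 of 8 muscle libraries were above every fat library. Muscle could thus still be seen in most libraries in what variation was left.

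Which genes appeared steady depended on how the libraries were scaled. With library sizes alone and no TMM factor, 5129 candidates were found and the 100 steadiest of them shared 0 genes with the steady genes. Read without the factor, the steady genes had a median SD of 0.431 and a median gap from muscle to the depots of -0.85. The 100 genes chosen without the factor had 0.211 and -0.04 without it, and 0.429 and 0.86 with TMM. The median gap of all candidates was 0.17 with TMM and -0.72 without. With the size factors of DESeq2 (RLE), 93 of the steady genes were again chosen. The scaling factors of fat (1.01 to 1.29) and muscle (0.524 to 0.747) did not overlap, so a level gene and a gene that differs by the gap between these factors cannot be told apart from the counts alone.

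**Figure D5:**
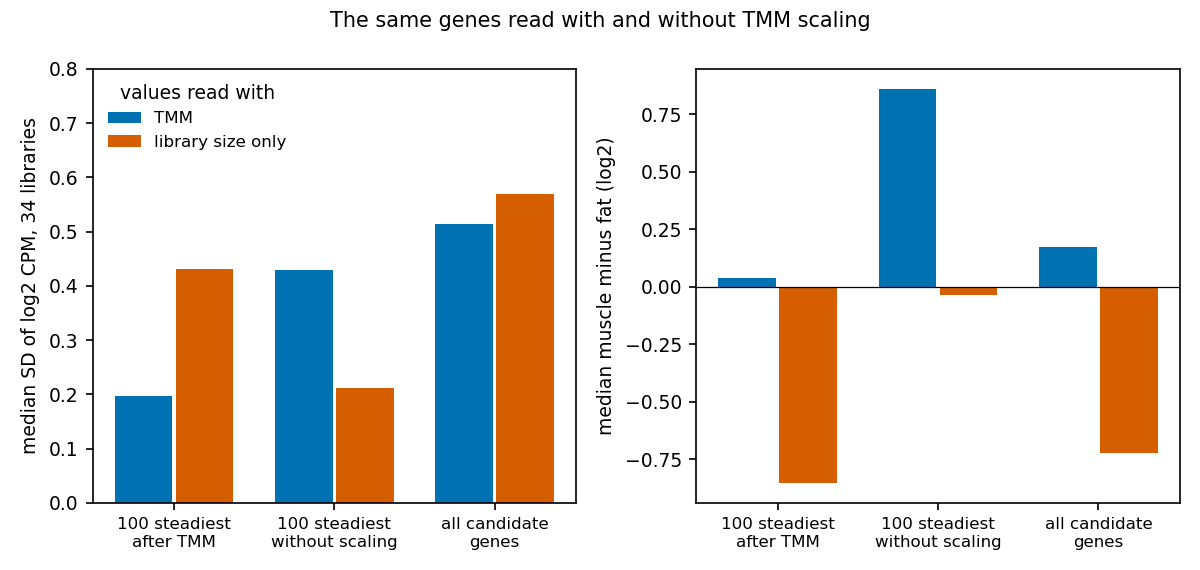
Median SD of log2 CPM over 34 libraries (left) and median gap from muscle to the depots (right, log2) for the steady genes, the 100 genes chosen without scaling and all candidates, read with TMM (blue) and with library size alone (orange). Each list is narrow (0.197 and 0.211) and level under the scaling that chose it, and wide (0.431 and 0.429) under the other.

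Ratios between genes of the same library need no scaling. The SD of the log2 ratio of a steady gene to the other steady genes averaged 0.224 to 0.297, with a median of 0.270. For the 100 genes chosen without the factor among themselves it was 0.237 to 0.313, with a median of 0.282. Both lists were thus about as level among themselves, and the mean SD of the ratio between a gene of one and a gene of the other was 0.457. The SD of the ratio to the steady genes was 0.733 for ACTB and 1.82 for GAPDH. The steady genes had themselves been chosen with TMM. Relative to the 100 genes chosen without the factor, the SD of the ratio was 1.04 for ACTB and 1.46 for GAPDH, a comparison added after the data were seen. Both standards had wider ratios to either list than the genes of that list had among themselves. Each list was chosen for low spread over these same libraries, so narrow ratios within it follow from the choice. The difference to the standards is therefore a description and no test. The size of the ratio SD depended on the list.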

How the data were processed

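Raw counts per Ensembl gene were read from 34 tables, 1 per library, in which the authors had deposited HTSeq (0.5.3p3) counts of paired-end poly(A) reads mapped to bosTau6 with TopHat2 (2.0.2). The strand setting is not given in the sources used here. The 5 lines of each table that name no gene held 63.3% to 71.1% of the counts and were left out. Groups came from the sample labels.

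CPM used TMM over all libraries (edgeR 4.0.16, R 4.3.3), and log2 CPM a prior count of 2. Pairs of tissues were compared with edgeR's quasi-likelihood test after filterByExpr (count minimum 10), with Benjamini-Hochberg adjustment over all genes and no term for the animal. DESeq2 1.42.0 and the animal as a block were among the alternatives. Spread was computed in Python 3.11.15 with numpy 2.4.6 and pandas 2.3.3. The choice of genes and the fits were tested on simulated data. No pair of libraries of a tissue differed by as little as sampling noise (lowest chi-square per degree of freedom 12.0 over 128 pairs).

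Libraries of one number are labelled as one animal. The median correlation of their deviations over the candidates was 0.463 between O and S (lowest 0.289) and -0.02 between S and M, with both signs in most pairs of tissues.

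The members and lists were chosen with earlier results of these data known. Named genes were the 10 lowest SDs, the 5 genes on either side of the limit, the largest gaps between muscle and fat, the widest within a tissue, and ACTB and GAPDH, of which the text prints a part. Of the RefSeq genes 0 carried an Ensembl identifier, so names came only from the 31 genes of the qRT-PCR list, and gene families, marker lists, promoters, proteins and levels per length were not analysed here.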

Additional observations from a re-analysis of the deposited data

Results flagged for a closer look

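Sets of values of 1 gene in 1 tissue were checked with Dixon's test, 64 in all. They covered 13 steady genes, both standards and the mean of the steady genes in each of the 4 tissues. A library stood apart from the rest in 3 sets, and chance gives about 1 in 20. Some of the 13 genes were picked for the widest spread within a tissue, so that rate need not hold for them. Over all steady genes a library stood apart in 20 of 400 sets. ENSBTAG00000020964 had a CPM of 29.9 in O of replicate 6, above the other 8 O libraries. ENSBTAG00000007299 had a CPM of 130 in M of replicate 5, above the other 7 M libraries. ACTB had a CPM of 2743 in M of replicate 8, above the other 7 M libraries, and that library also had the highest TMM factor of muscle (0.747), whose part in the value was not tested. Of the 20 sets with a library apart among the steady genes, 6 were I of replicate 5.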

How the results depend on the processing

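Of the 100 steady genes, 0 were chosen again with library size only, 29 from the fat libraries only, 40 by the pooled SD within tissues and 44 by the median absolute deviation. With the other settings (RLE factors, prior counts of 0.5 and 5, CPM minimums of 1 and 30, counting variance taken off) 77 to 100 were chosen again, and 75 to 90 without one replicate or 1 muscle library. No setting without a CPM minimum was run. The SD of ACTB was 1.03 with library size only and 0.382 in fat only, that of GAPDH 1.44 and 0.444, and the median SD of the steady genes 0.431 and 0.177, or 0.270 for pairwise ratios. Without one replicate these were 0.659 to 0.730 for ACTB, 1.78 to 1.91 for GAPDH and 0.192 to 0.201 for the steady genes, and without the muscle library of replicate 4 or 8 they were 0.684 and 0.707, 1.74 and 1.78, and 0.195 in both cases. The SD of the ratio to the 100 genes chosen with library size only was 1.04 for ACTB and 1.46 for GAPDH. The median SD in animals left out was 0.176 to 0.180 under other scalings and priors, with the 0.180 from library size only. This spread thus cannot tell the scalings apart. These settings for that spread, and muscle without replicate 8, were added after the data were seen.

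The number of steady genes called was small and moved with the setting. The share of all genes called with these settings is not given here, so the counts are a description. DESeq2 called 10 in O against I, 7 in I against S, 11 in M against O, 8 in M against I and 13 in M against S. Without the filter on counts these were 3, 0, 3, 3 and 3, with 12 genes at an unadjusted p under 0.05 in I against S. With the replicate block they were 1, 0, 3, 1 and 1. Without one replicate the counts were 1 to 5 in O against I, 0 to 1 in O against S, 0 to 3 in I against S, 1 to 7 in M against O, 0 to 8 in M against I and 1 to 6 in M against S. ACTB in I against S lost its call in 8 of 13 settings (0.48 to 0.65) and in O against I gained it with DESeq2 (-0.51). GAPDH in O against I lost its call without replicate 2 (-0.63). Both standards kept direction and call against muscle in all 13 settings. The causes were not tested. The replicate block changed no other call of the standards.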
